A study of Mus musculus with 2 samples.

Results

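Amino acid transporters of the SLC families 1, 3, 6, 7, 36, 38 and 43 were examined in P5424, a mouse T-cell line. The members were the genes whose symbol in the scanner files was a plain member name of these families (Slc1a, Slc3a, Slc6a, Slc7a, Slc36a, Slc38a or Slc43a followed by a number). This gave 60 of the 22221 named genes on the array, measured by 80 of its 55681 probes. A few of them carry monoamines or other solutes in place of amino acids, since a family is wider than its best-known substrates. Both samples were untreated P5424 cells whose labels give a knockout of Rag2 and P53, kept in RPMI1640 medium supplemented with serum and 2-mercaptoethanol. P5424 is a single cell line, so the values describe that line and not thymocytes in a mouse. Total RNA of the samples, replicate 1 and replicate 2, was hybridised to 1 one-colour Agilent array each. Separate cultures are not named in the labels, and the spread between the arrays could therefore be technical. There was 1 group and no second condition, and no test between groups was possible.

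Amino acids cross the plasma membrane on carriers that differ in substrate and in driving force. Sodium-coupled carriers concentrate amino acids in the cell, while exchangers let 1 amino acid out to bring another in. The exchangers of the heterodimeric type consist of a light chain of the SLC7 family, which transports, and a heavy chain of the SLC3 family, which brings it to the cell surface. Proliferating lymphocytes are known to depend on uptake of glutamine, large neutral and cationic amino acids, and activated T cells raise Slc7a5, Slc3a2 and Slc1a5. Other members are best known from brain, kidney and gut, where they clear transmitters from synapses or reabsorb amino acids.

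A probe counted as detected where both arrays flagged it as well above background in the scanner software, and a gene was called detected where any of its probes was. Signals are given in intensity units of the scanner for replicate 1 and replicate 2 in that order. Values on the log2 scale are relative to the 75th percentile of the array (324 and 299 units) and follow as mean ± SD (n = 2 arrays). The brightness of a spot depends on its probe as well as on the transcript, so the level of one gene is not set against that of another. The dimmest probe on the whole array that counted as well above background had 28.9 units on replicate 1 and 31.1 on replicate 2. The highest of 308 negative control spots reached 15.1 and 101 units.

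Libraries and labels were checked first. Replicate 1 had 23649 probes well above background and replicate 2 had 22923. All 13 markers of immature T cells, among them Cd3e, Cd3d, Cd3g and Cd247, were detected. The 8 markers of kidney tubule and gut epithelium, cells known for many of these carriers, held 0 detected genes, and Vil1 was found on 1 array. Of 6 neuronal markers, Syp, Snap25 and Tubb3 were detected and Rbfox3 and Gad1 were on neither array. Of 5 astrocyte markers, Aqp4 and Aldh1l1 were detected and Gfap, Gja1 and S100b were on neither array. Detected markers of the remaining lists were Cd79a among 6 of the B lineage, Csf1r, Itgam and Cd14 among 6 of myeloid cells, and Pdgfrb and Pecam1 among 6 of fibroblasts and endothelium. Cd79a (51.3 and 42.5 units), Cd14 (44.8 and 47.0) and Aldh1l1 (79.7 and 87.5) were dimmer than the highest control spot of replicate 2. The other detected ones were brighter than that spot, among them Itgam (6292 and 6868 units), Snap25 (5028 and 4970) and Pdgfrb (1573 and 1557). Over all named genes the share detected was 51.7%. The part of these markers in the values of the transporters was not tested. The genes labelled as knocked out gave signal on both arrays, with 2132 and 2086 units for a Rag2 probe, 89.2 and 88.3 for the other, and 746 and 996 for the Trp53 probe. Which part of either gene was deleted is not in the labels, so these probes check nothing about the genotype.

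Every value below is the brightness of a 60-base probe, and the probes behind the leading results are shown by their first 30 bases, 5′ to 3′ in the sense of the transcript. They are the probe of the heavy chain Slc3a2, that of the cationic carrier Slc7a1, and all probes of Slc7a5, Slc38a1 and Slc6a9, 3 genes measured at more than 1 place. The number after a name is the base of its transcript at which the probe starts. The probes of Slc6a9 start 9 bases apart and share 51 of their 60 bases, and the capitals mark the bases that both printed stretches hold. The lower-case end of the second stretch is shared too, beyond the printed end of the first.
Slc3a2, base 1695: gagggcttgctgttacagttcccctttgtg
Slc7a1, base 6148: aggcttgttttggtttgcgaaatactttga
Slc7a5, base 533: tagtcttcgccacctacttgctcaagccgg
Slc7a5, base 3363: gtggttataatgtcttttactattgtatta
Slc38a1, base 2748: tggaaacacgatcaacagttgtcttcactt
Slc38a1, base 4354: tgaccacctttgtagctctgtttgtactgt
Slc38a1, base 6788: gaatctatgcagcagaggctcactttagga
Slc6a9, base 3203: gcccagtgtGTGCAGAACTAGGGTTTTAAA
Slc6a9, base 3212: GTGCAGAACTAGGGTTTTAAAgtccgtagg
On the mouse build mm9 the Slc3a2 probe lies on the minus strand of chromosome 19, at 8782189 to 8782248, and the Slc7a1 probe on the minus strand of chromosome 5, at 149139957 to 149140016. The Slc7a5 probes lie on the minus strand of chromosome 8, at 124430996 to 124431055 and at 124405136 to 124405195. The Slc38a1 probes lie on the minus strand of chromosome 15, at 96406793 to 96406852, 96405187 to 96405246 and 96402753 to 96402812. The Slc6a9 probes lie on the plus strand of chromosome 4, at 117541842 to 117541901 and 117541851 to 117541910. Whether a probe lies in a coding or an untranslated part of its transcript was not analysed here. The probes of the 60 genes had 26.7% to 60% G and C, with a median of 41.7% among the 32 detected probes and 43.3% among the others, as among all detected probes of the array (43.3%).

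Of the 60 transporter genes, 23 were detected (38.3%), 2 were found on 1 array and 35 on neither. Over all named genes the share was 51.7%, over protein-coding genes 54.1%, and over the 291 other named SLC genes of the array 50.9%. The share of the transporters thus lay below each of these backgrounds. A weaker criterion, a positive and significant signal on both arrays, was met by 36 transporters and by 67.5% of all named genes. Detection with a signal above the highest negative control spot of each array was met by 20 transporters and by 45.8% of all named genes. Genes with more probes are detected more often on this array (45.1% of named genes with 1 probe, 66.1% of those with more), and the transporters were below the background in both groups, with 15 of 44 genes with 1 probe (34.1%) and 8 of 16 with more. By family, Slc38 had 6 of 11 detected, Slc7 had 6 of 15, Slc6 had 4 of 18, Slc1 had 2 of 7, Slc36 had 2 of 4, Slc43 had 2 of 3 and Slc3 had 1 of 2.

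The classes by substrate are textbook assignments made by hand, and each count below depends on them. Grouped in this way, the cationic carriers had 5 of 7 genes detected, and the carriers for broad neutral amino acids (0 of 5) and monoamines (0 of 3) had none. Between these lay the large neutral carriers (2 of 4), the alanine, serine and cysteine carriers (2 of 4), the glutamine and small neutral carriers of the SNAT type (3 of 7), the glycine and proline carriers (3 of 7), the carriers of GABA, betaine, taurine and creatine (3 of 6) and the acidic amino acid and cystine carriers (1 of 7). With 3 to 7 genes in such a class, 1 gene moves its share by much. Beside the 51.7% of all named genes, the classes with 2 of 4, 3 of 7 or 3 of 6 genes lie near the background, and the differences between classes were not tested.

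**Figure D1:**
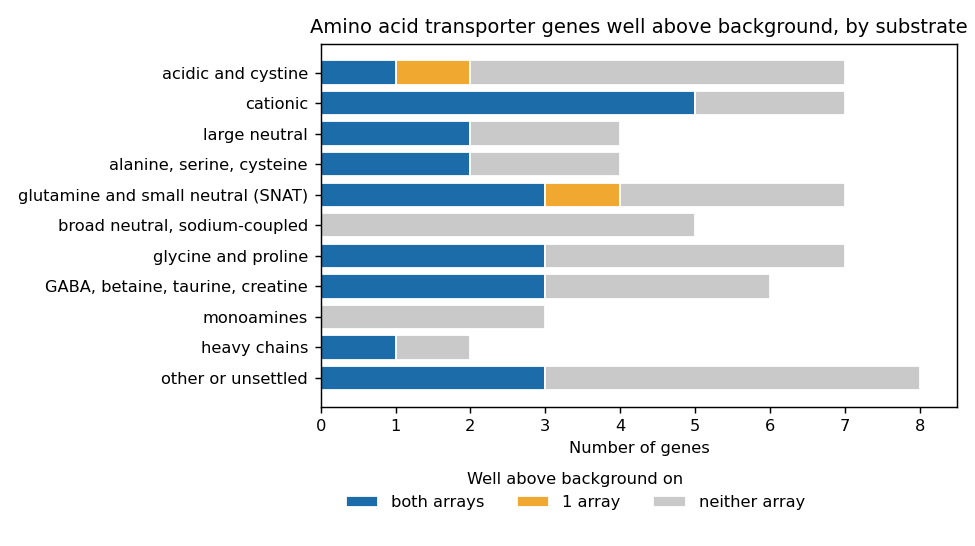
Number of transporter genes (horizontal axis) in each substrate class, split by whether any probe of the gene was well above background on both arrays (blue), on 1 array (orange) or on neither (grey). The cationic class has 5 of its 7 genes detected, and the broad neutral and monoamine classes have none.

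The heavy chains differed. Slc3a2 encodes 4F2hc (CD98), the heavy chain used by most cells, and it had signals of 16406 and 17724 units, a value of 5.78 ± 0.16. Slc3a1 encodes rBAT, the heavy chain of the kidney and gut cystine carrier, and its probe was at 13.8 and 23.1 units, not well above background on either array. Of the 9 light chains that pair with a heavy chain, 4 were detected (44.4%), near the 51.7% of all named genes. They were Slc7a5, Slc7a6, Slc7a7 and Slc7a11. All 4 are known partners of Slc3a2, but so are Slc7a8 and Slc7a10, which were not detected. The 5 others, Slc7a8, Slc7a9, Slc7a10, Slc7a12 and Slc7a13, were on neither array, with signals from 5.92 to 15.4 units. Slc7a9, the known partner of rBAT, was at 6.37 and 7.23 units. Neither chain of the kidney cystine carrier was thus well above background.

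The large neutral amino acids, such as leucine, phenylalanine and tryptophan, are carried by 2 light chains and by the SLC43 family. Slc7a5 (LAT1), an exchanger known from dividing cells, had 811 and 932 units with its probe at base 3363, a value of 1.48 ± 0.23. Its probe at base 533 gave 353 and 373 units (0.22 ± 0.14). Slc7a8 (LAT2), its relative in kidney and gut, was not well above background over the spots of its probe, which is printed 10 times on each array and averaged 6.57 and 7.49 units. Slc43a2 (LAT4), a carrier that needs no exchange partner, had 2245 and 2174 units, a value of 2.83 ± 0.05. Slc43a1 (LAT3), of the same mechanism, was at 6.85 and 7.94 units on neither array. In each of these pairs of related carriers, 1 gene was detected and the other was not.

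The cationic amino acids arginine, lysine and ornithine enter cells on the CAT carriers. Slc7a1 (CAT1), the CAT carrier found in most cells, had 10595 and 9591 units and a value of 5.02 ± 0.02. Slc7a3 (CAT3), best known from brain, had 67.2 and 45.7 units (-2.49 ± 0.31), detected on both arrays but dimmer on replicate 2 than the highest control spot there. Slc7a2 (CAT2), the form induced in macrophages, was at 9.29 and 6.79 units on neither array. Slc7a6 (y+LAT2) and Slc7a7 (y+LAT1) exchange cationic for neutral amino acids and mostly let arginine out. Slc7a6 had 368 and 258 units (-0.01 ± 0.28), and Slc7a7 had 156 and 154 units (-1.0 ± 0.07). Slc38a9, a lysosomal arginine carrier and sensor upstream of mTORC1, had 1278 and 832 units with its probe at base 2994 (1.73 ± 0.35). The detected genes of this class therefore cover uptake, exchange and the lysosome.

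Alanine, serine, cysteine and glutamine are carried by the ASC type of exchanger. Slc1a5 (ASCT2), a glutamine exchanger raised in many dividing cells, had 4466 and 4603 units with its probe at base 2493, a value of 3.86 ± 0.11. Its probe at base 2161 gave 1188 and 1611 units (2.15 ± 0.39). Slc1a4 (ASCT1) had 541 and 374 units (0.53 ± 0.29). Slc7a10 and Slc7a12, the light chains of this class, were on neither array. These 2 SLC1 genes were the detected members of a family whose other 5 genes carry glutamate.

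The SNAT carriers take up glutamine and small neutral amino acids with sodium. Slc38a1 (SNAT1) had 25572 and 24280 units with its probe at base 2748, a value of 6.32 ± 0.03, and its other probes were detected too. Slc38a2 (SNAT2), a carrier known to rise when amino acids are short, had 10478 and 11195 units (5.12 ± 0.15). Slc38a7 (SNAT7), which exports glutamine from lysosomes, had 248 and 252 units (-0.32 ± 0.10). Slc38a3 (SNAT3), known from liver, kidney and astrocytes, was well above background on replicate 1 alone, although its signals were nearly the same at 35.6 and 35.7 units. Slc38a4, Slc38a5 and Slc38a8 were on neither array, at 5.80 to 11.5 units.

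The acidic amino acids glutamate and aspartate are carried by the excitatory amino acid transporters, which clear glutamate around synapses. Slc1a1, Slc1a2, Slc1a3 and Slc1a6 were on neither array with any of their probes, at 6.06 to 13.0 units. The 10 spots of the Slc1a1 probe averaged 8.95 and 12.1 units. Slc1a7, known from the retina, was well above background on replicate 1 (44.2 units) and not on replicate 2 (10.8 units). Slc7a13, an aspartate and glutamate light chain of the kidney, was at 5.99 and 6.76 units. Slc7a11 (xCT), which takes up cystine in exchange for glutamate and feeds glutathione synthesis, was the detected member of this class, with 122 and 182 units and a value of -1.06 ± 0.49. It lay 1.62-fold higher on replicate 2.

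Slc7a11 is a known target of ATF4, the factor that raises amino acid transporters and synthesis genes when amino acids are short. Its binding motif was therefore searched in the RefSeq promoters of the members (250 bases before to 50 after a start site, build GRCm38.p6), as TGATGNAAN on both strands, where N is any base and matches may overlap. A promoter was held for 42 of the 60 members. Matches were found for 3 of these 42 (7.14%), Slc7a11, Slc7a7 and Slc1a4. All 3 were detected, which is 3 of the 16 detected members with a promoter (18.8%) and 0 of the 26 others. Slc7a11 itself prompted the search, and without it the count of detected members is 2 of 15 (13.3%). This split by detection rests on few genes and was not tested. A match was held by 6.35% of the 63 promoters of members and by 3.95% of all 32851 promoters. By gene it was 4.5% of all genes with a promoter and 2.62% of detected genes. The Slc7a11 promoter holds 2 matches on opposite strands, 9 bases apart, which start 66 and 48 bases before the start site. They are shown in capitals as the clearest case, from chr3:50443638-50443694 of GRCm38.p6 in the sense of the gene, which lies on the minus strand.
Slc7a11 promoter: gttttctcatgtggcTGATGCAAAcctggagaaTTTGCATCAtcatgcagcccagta
A match describes these letters and does not show that a factor binds there.

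Glycine and proline carriers were mixed. Slc6a9 (GlyT1), a sodium-coupled glycine carrier also found in red cell precursors and glia, had 1286 and 1351 units with its probe at base 3203 (2.08 ± 0.13). Slc6a5 (GlyT2) and Slc6a7 (the brain proline carrier), its relatives in neurons, were on neither array. Slc36a1 (PAT1), a proton-coupled carrier of lysosomes and gut, was detected with both of its probes, at 110 and 84.8 units with the probe at base 2786 (-1.69 ± 0.18). Slc36a3 (PAT3), best known from testis, was detected with 1 of its 2 probes, at 73.1 and 71.9 units (-2.10 ± 0.07). Slc36a2 and Slc36a4 were on neither array, and the probes of these 4 undetected genes gave 6.32 to 16.7 units. On replicate 2 every probe of Slc36a1 and Slc36a3 was dimmer than the highest control spot, and those of Slc6a9 were not.

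The sodium-coupled carriers of broad neutral substrates, Slc6a14, Slc6a15, Slc6a17, Slc6a18 and Slc6a19, were on neither array. Slc6a19 (B0AT1) and Slc6a18 serve kidney and gut, and Slc6a15 and Slc6a17 serve neurons. Their probes gave 5.94 to 18.1 units on replicate 1 and 6.51 to 11.7 on replicate 2. The monoamine carriers for noradrenaline (Slc6a2), dopamine (Slc6a3) and serotonin (Slc6a4) were also on neither array, at 6.83 to 8.16 units. For comparison, the negative control spots had a median of 6.55 and 7.5 units.

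Carriers of GABA and of the osmolytes taurine, betaine and creatine had 3 of 6 genes detected. Slc6a13 (GAT2), a GABA and taurine carrier best known from liver, kidney and meninges, had 9248 and 7066 units and a value of 4.70 ± 0.19. Slc6a6, the taurine carrier, had 1811 and 1757 units (2.52 ± 0.05), and Slc6a8, the creatine carrier, had 135 and 128 units (-1.24 ± 0.03). Slc6a11 (GAT3), a GABA carrier of glia, was on neither array, at 14.3 and 9.79 units. Slc6a12 (BGT1), a betaine and GABA carrier closely related to Slc6a13, was at 6.15 and 7.06 units. The Slc6a13 probe lies on chromosome 6 at 121287597 to 121287656 of mm9, and the Slc6a12 probe on the same chromosome at 121315541 to 121315600.

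Of 8 members with another or unsettled substrate, 3 were detected. Slc43a3, a carrier of purine nucleobases, had 5111 and 6907 units (4.25 ± 0.39). Slc38a10 had 525 and 518 units (0.74 ± 0.07), and Slc38a6 had 957 and 664 units with its probe at base 1667 (1.36 ± 0.29). Slc6a16, Slc7a4, Slc7a14, Slc7a15 and Slc38a11 were on neither array, at 6.09 to 33.2 units. A Slc7a15 probe, at base 783 of its transcript, read 8.08 units on replicate 1 and 33.2 on replicate 2, without being marked well above background on either.

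**Figure D2:**
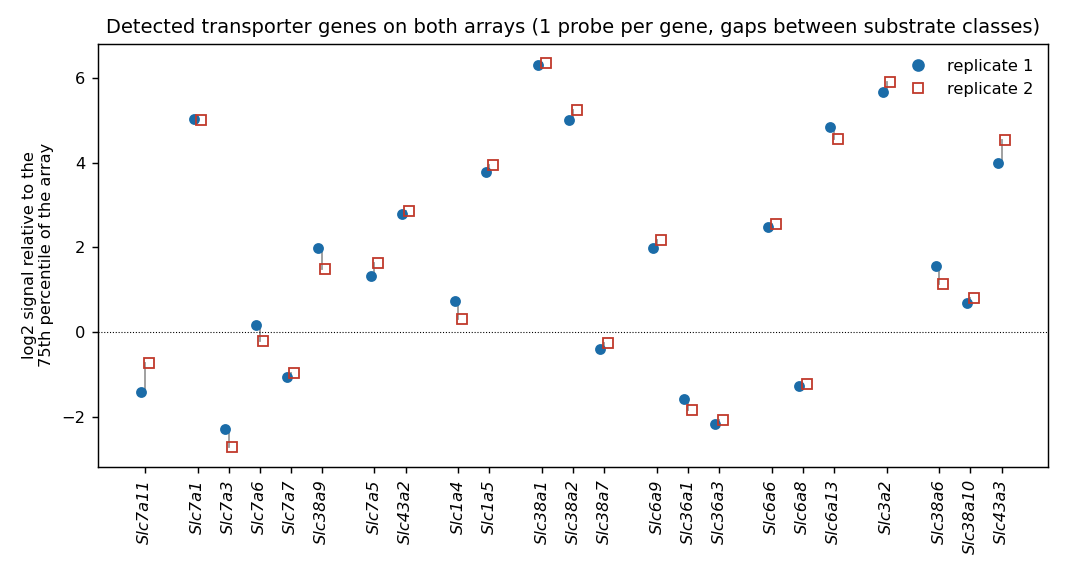
Log2 signal relative to the 75th percentile of its array (vertical axis) for the 23 detected genes, 1 probe per gene, on replicate 1 (filled circles) and replicate 2 (open squares), ordered by substrate class with gaps between classes. The values of a gene on the 2 arrays lie close together compared with the whole span, and Slc7a11 has the widest gap (-1.41 and -0.72); heights of different genes depend on their probes and are not compared.

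Several probes of a gene did not always give the same value. Of 16 genes with more than 1 probe, 7 were detected with all of them, 8 with none, and Slc36a3 with 1 of 2. The Slc36a3 probe at base 1592 was detected, and its probe at base 144 was not (18.8 and 11.3 units). Slc38a1 had values of 6.32 ± 0.03, 1.61 ± 0.10 and 4.46 ± 0.24 with its probes at bases 2748, 4354 and 6788. Slc38a9 had 1.73 ± 0.35, -2.46 ± 0.04 and 0.03 ± 0.45 with probes at bases 2994, 4521 and 8645. In both genes the probes disagreed by more than the arrays did for any of them, so the value of the gene depends on the probe taken. The Slc6a9 probes that share 51 bases read 2.08 ± 0.13 and 1.66 ± 0.05. Whether transcript ends or isoforms differ between these positions was not tested.

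**Figure D3:**
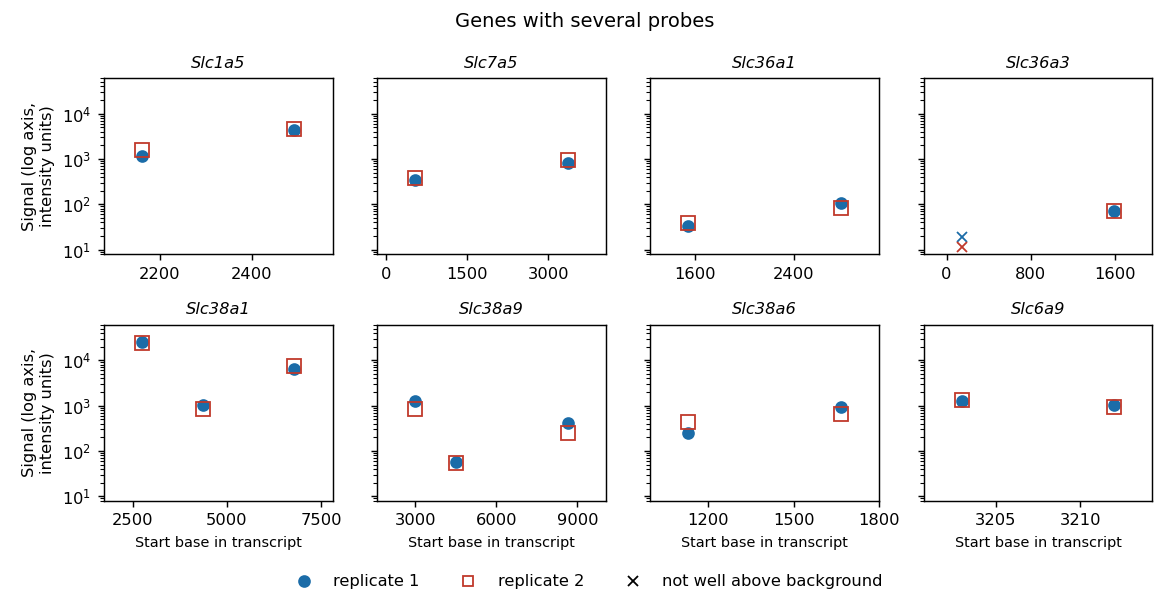
Signal in intensity units (vertical log axis) against the start base of each probe in its own transcript (horizontal axis) for the 8 genes with several probes and at least 1 detected, on replicate 1 (filled circles) and replicate 2 (open squares); crosses mark probes not well above background. The 3 Slc38a1 probes span 867 to 25572 units, and the upstream Slc36a3 probe is the only one not well above background.

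The values of the detected transporters were compared between the arrays. Of the 23 genes 0 were over 2-fold apart. Of all detected genes 0.783% were, 0.531% higher on replicate 2 and 0.252% higher on replicate 1. Of the 32 detected transporter probes 0 were over 2-fold apart, against 1.15% of all detected probes. With so few members, both counts of 0 lie near those shares. The 23 genes had a median absolute difference of 0.21 on the log2 scale, against 0.16 over all detected genes. The difference of replicate 2 minus replicate 1 had a median of 0.07, with 15 genes higher on replicate 2 and 8 higher on replicate 1, against a median of -0.03 over all detected genes. The median depends on the scaling, and with each array scaled to its median it was -0.15. The widest differences were those of Slc7a11 (1.62-fold, higher on replicate 2), Slc43a3 (1.47-fold, higher on replicate 2) and Slc38a9 (1.41-fold, higher on replicate 1). The Slc38a6 probes differed in opposite directions, with 957 and 664 units at base 1667 and 248 and 427 units at base 1130 of another transcript of the gene. That probe had the largest gap of the 32 detected ones, 1.87-fold.

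**Figure D4:**
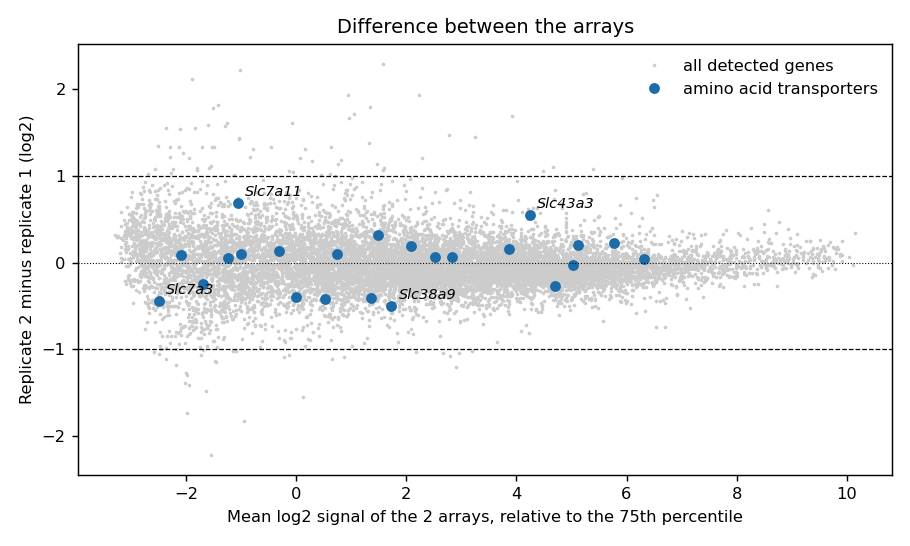
Difference of replicate 2 minus replicate 1 on the log2 scale (vertical axis) against the mean of the 2 arrays relative to the 75th percentile (horizontal axis) for all detected genes (grey) and the 23 detected transporters (blue). Dashed lines mark a 2-fold difference, and all transporters lie between them.

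Genes that handle the carried amino acids inside the cell were counted in the same way. Of 25 enzymes that make or use these amino acids, 23 were detected, and the exceptions were the arginases Arg1 and Arg2. The detected ones include the glutamine synthetase Glul (2.48 ± 0.04) and the glutamate dehydrogenase Glud1 (5.28 ± 0.05). Of 29 genes listed for amino acid sensing to mTORC1, with parts of mTORC1 itself and Rheb included, 27 were detected. The exceptions were Castor1, an arginine sensor, and Rragd, a Rag GTPase. The sestrin genes of this list, Sesn1, Sesn2 and Sesn3, had 3.56 ± 0.13, 1.61 ± 0.02 and 1.35 ± 0.29. Of 9 mitochondrial amino acid carriers, 7 were detected and Slc25a2 and Slc25a18 were not. Slc25a15 (38.2 and 63.0 units) and Slc25a22 (83.1 and 38.5 units) were dimmer on replicate 2 than the highest control spot there, which leaves 5 above it. Of 10 carriers of lysosomes and vesicles, 5 were detected, Ctns, Slc66a1, Slc15a4, Mfsd12 and Slc17a5, and Slc15a3 and the synaptic vesicle carriers Slc17a6, Slc17a8 and Slc32a1 were on neither array. Slc17a7, another vesicle carrier, was found on 1 array. Of 8 surface carriers and partner proteins outside the members, Slc6a20a (46.9 and 44.3 units) and Slc15a2 (92.6 and 68.4 units) were detected. Both were dimmer than the highest control spot of replicate 2, and with that criterion the count is 0. The background is the same 51.7% of all named genes for detection, and 45.8% for detection above the highest control spot. These lists were not split by probes per gene, on which the share depends (45.1% with 1 probe, 66.1% with more).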

How the data were processed

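The scanner files hold intensity values from the authors' use of Agilent Feature Extraction 10.5.1.1 (background subtraction, detrending, surrogates near background, per the file headers), with no scaling between arrays. Other columns are flags of that software. A second table holds log2 values deposited by the authors, with scale and centring unstated. Its column medians were both 5.18 and its slope on the scanner values 1.00 and 1.01, and it served as an alternative. The build mm9 is given per the file headers.

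Spots marked as outliers were left out (182 and 186, 2 of them of member probes). No spot was saturated. Processed signals were averaged per probe on the log2 scale, less the 75th percentile of each array (control probes left out). A probe on several spots needed 50% of them well above background. A gene takes the value of whichever detected probe has the highest mean. Other genes were named through RefSeq tables of GRCm38.p6. Tools were Python 3.11.15, R 4.3.3 and limma 3.58.1 (normexp, offset 50). The scaling was run on simulated data, where 100.0% of 200 probes changed 4-fold were recovered among 22321 at the 2-fold cutoff, with 0 false calls. Of the real detected probes 1.15% were over 2-fold apart, so the simulated noise was smaller than that of the data. The recovery checks the code and not the precision of these arrays.

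The members and lists were chosen with earlier results of these data known. Every member is named, except that a few results are not reported here. Of another list, the smaller class is named up to 5 genes, otherwise the first 4 detected in list order; Glul, Glud1 and the Sesn genes, early in their lists, were named besides, and Slc25a15 and Slc25a22 after their values were seen. Probes were to be shown where they translate into the RefSeq protein. No protein table was used here, so that rule could not be applied, and the probes shown, those of Slc6a9 included, were picked after values were seen. With 2 arrays, precision is limited by their number.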

Additional observations from a re-analysis of the deposited data

Results flagged for a closer look

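Slc7a6os, which lies next to Slc7a6 on the opposite strand and is not a transporter, gave signal in a probe outside the comparisons, at 1665 units on replicate 1 and 1469 on replicate 2 (2.33 ± 0.04). The negative control spots had a median of 6.55 and 7.5 units.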

How the results depend on the processing

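Counting a signal that was positive and significant on both arrays raised the detected transporters from 23 to 36, beside 67.5% of all named genes. By class it gave 3 acidic and cystine carriers, 5 of GABA, betaine, taurine and creatine, 1 broad neutral carrier, 2 heavy chains and 7 of other or unsettled substrate, and of the other lists 8 lysosomal and vesicular and 4 other surface carriers. Detection on either array added Slc1a7 and Slc38a3 (25 genes), which gave 2 acidic and cystine carriers. Leaving out each replicate gave 23 to 25 genes, with 1 to 2 acidic and cystine carriers, the higher counts without replicate 2. Requiring a signal above the highest negative control spot dropped Slc7a3, Slc36a1 and Slc36a3 (20 genes), which left 1 glycine and proline carrier. The same criterion, applied to the other lists after seeing the data, left 0 of the 2 other surface carriers. Requiring every probe dropped Slc36a3 (22 genes) and left 3 lysosomal and vesicular carriers. With arrays scaled to their medians, the difference (replicate 2 minus replicate 1) had a median of -0.15 over detected transporters, from 0.07, and -0.23 over all detected probes. The transporters' share stayed below that of all named genes and of other SLC genes under each of the 7 alternative criteria run. No gene came to be over 2-fold apart under the 5 alternatives run. Levels are relative to the scaling, and moved by more than their SD for all 23 genes with either other scaling, for 15 with normexp and for 3 in the authors' table. With either other scaling a different value was subtracted from every probe of an array, so all levels had to move. The cause of the moves with normexp and in the authors' table was not tested. No paired analysis was possible because the arrays form 1 group. Signal over background limits the calls for genes near 30 units.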

Other observations

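Several members are next neighbours among the protein-coding genes of the RefSeq annotation (GRCm38.p6, used for order alone), and neighbours differed in detection. On chromosome 15 Slc38a1 and Slc38a2 were detected and the adjoining Slc38a4 was on neither array. On chromosome 11 Slc36a3 and Slc36a1 were detected, and Slc36a2, which lies between them, was on neither array. All probes of Slc36a3 and Slc36a1 were dimmer than the highest control spot of replicate 2, so this difference rests on dim signals. On chromosome 6 Slc6a13 was detected, as was Usp18 on its other side, and Slc6a12 was not. Slc6a18 and Slc6a19, neighbours on chromosome 13, were on neither array, and the genes on their outer sides, Tert and Slc12a7, were detected. These neighbours were looked up after the values of the members were seen.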
